A study of Mus musculus with 17 samples.

Results

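Sh3pxd2b is the first protein-coding gene beyond the downstream edge of the mouse alpha-globin domain, and its contacts were read here as contacts past that edge. The members were all fragment pairs with at least 1 fragment whose midpoint lay on chromosome 11 between 32247000 and 32325000 (mm9), a range of 78 kb. There were 7009 such pairs among the 514959 of the R2 table and 8377 among the 448951 of the CTCF table. The range held 379 NlaIII fragments with a contact, of which 378 appeared in both tables, with a median length of 153 bp. Exons and the start site were not placed, since no mm9 annotation was used here. In the RefSeq table of assembly GRCm38.p6 the order of genes was Hba-x, Hba-a1, Hbq1b, Hba-a2, Hbq1a, the non-coding Gm46275, Sh3pxd2b, the pseudogene Gm51948 and then Ubtd2.

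Sh3pxd2b encodes Tks4, an adaptor protein with a PX domain and several SH3 domains that is phosphorylated by Src and acts in podosomes and invadopodia, the actin-rich protrusions with which cells degrade matrix. The human gene is mutated in Frank-ter Haar syndrome. CTCF is a DNA-binding insulator protein. CTCF sites that face each other on both sides of a domain are known to stall cohesin, and contacts across such sites are usually less frequent than contacts within the domain.

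Contacts were measured by Tri-C, in which formaldehyde-fixed chromatin is digested by NlaIII and religated, and ligation products that contain a viewpoint fragment are captured with oligonucleotides, so that a read can report several fragments that met the viewpoint on the same allele. The erythroid group held Ter-119+ cells, selected with antibody and magnetic beads from spleens taken from C57BL/6 females after repeated phenylhydrazine (40 mg/g body weight in the labels, 12 hours apart). The ES group was the E14 embryonic stem cell line of strain 129/Ola, in which the globin genes are inactive. The groups thus differ in strain as well as in cell type, and these cannot be told apart. Each cell type has 3 biological replicates, sequenced as 10 erythroid and 7 ES libraries, which were summed to n = 3. The labels do not say whether these are separate animals or cultures, so p-values may measure only technical spread. Tri-C holds no RNA measure, and the cell types were not checked against markers.

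Both viewpoints lie upstream of Sh3pxd2b. R2 is an enhancer in the cluster R1, R2, R3, Rm and R4 of the alpha-globin genes, and the range began 95.98 kb and ended 174 kb downstream of it. The CTCF viewpoint is a site in the upstream flank of that cluster, and the range lay 109.5 to 187.5 kb from it. Between the viewpoints and Sh3pxd2b lie the globin genes and then the downstream CTCF sites named +44 and +48 after their distance in kb from Hba-x.

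The RefSeq promoter of Sh3pxd2b is shown because it is the regulatory element that an enhancer contact beyond the boundary could meet. It covers chr11:32347590-32347889 of GRCm38.p6 on the plus strand, with the 250 bases before the start in lower case and the 50 bases from the start on in capitals.
Sh3pxd2b promoter: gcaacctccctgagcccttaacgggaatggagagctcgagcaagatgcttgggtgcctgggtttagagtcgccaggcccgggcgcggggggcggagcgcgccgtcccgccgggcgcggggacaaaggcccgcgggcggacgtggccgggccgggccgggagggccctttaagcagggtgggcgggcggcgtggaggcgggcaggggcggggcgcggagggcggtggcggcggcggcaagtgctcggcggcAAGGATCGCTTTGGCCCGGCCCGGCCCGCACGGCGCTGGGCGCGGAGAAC
The sequence was 77.3% G and C and held 42 CpG dinucleotides, against a median of 7 over 32851 promoters. On both strands it held 0 matches to the NlaIII site CATG, which 61.1% of promoters held, and 0 to GATAAG, a form of the GATA motif (7.44% of promoters). Because the build differs from that of the contacts, the promoter was not placed on a fragment.

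Seen from R2, Sh3pxd2b was contacted far less often in erythroid cells than in ES cells. Per 1000 fragment pairs of the table, the erythroid replicates gave 3.89, 3.10 and 5.14 pairs with Sh3pxd2b. The ES replicates gave 32.3, 23.4 and 32.6. Every ES replicate lay above every erythroid replicate, with means of 4.05 ± 1.03 and 29.4 ± 5.21 (SD, n = 3 each). The summed counts were 4341 in erythroid and 24119 in ES cells, from 1386 and 5886 distinct fragment pairs. In edgeR's quasi-likelihood fit over 78 kb windows of chromosome 11, where each fragment of a pair counts as 1 contact, the change at Sh3pxd2b was -2.91 on the log2 scale, erythroid minus ES (SE 0.35, Benjamini-Hochberg adjusted p = 7.34e-06).

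That fall was not particular to Sh3pxd2b. Over chromosome 11, 45 of 1523 windows fell by the same rule (2.95%), but among the 13 windows within 500 kb of R2 the share was 76.9%. In those 13 windows the median log2 change was -2.76, and 4 windows fell further than Sh3pxd2b. The next 78 kb beyond the gene changed by -3.12 (SE 0.41, edgeR adjusted p = 1.61e-05). On the other side of R2, a window starting 312 kb before the Sh3pxd2b range changed by -3.63 (SE 0.39, edgeR adjusted p = 2.25e-06). Sh3pxd2b therefore sat amid a loss of R2 contacts that spanned both flanks.

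Part of the R2 libraries lay off the chromosome, and this bears on the size of the change. Neither fragment was on chromosome 11 in 49.98% ± 7.16 of erythroid pairs but 18.3% ± 5.27 of ES pairs (SD, n = 3; p = 0.1 by exact two-sided permutation, and 3 against 3 allows no smaller p). Counted per 1000 pairs with both fragments on chromosome 11, Sh3pxd2b had 11.1, 10.03 and 10.9 pairs in the erythroid replicates and 45.9, 28.2 and 43.9 in the ES replicates. The groups stayed apart, at 10.7 ± 0.559 against 39.3 ± 9.66 (SD, n = 3). On this scale the window's log2 change was -1.85 (SE 0.19, edgeR adjusted p = 1.87e-06), while the median over all windows moved to 1.10.

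Seen from the upstream CTCF site, the 2 cell types were much closer. The erythroid replicates gave 15.7, 16.8 and 17.3 pairs with Sh3pxd2b per 1000, and the ES replicates 22.5, 21.9 and 24.4. The groups did not overlap, with means of 16.6 ± 0.827 and 22.9 ± 1.31 (SD, n = 3). The counts behind them were 16583 and 15753, so the erythroid level from this viewpoint rested on more pairs than that from R2. In the fit over all windows the log2 change was -0.53 (SE 0.19), which did not pass the threshold (edgeR adjusted p = 0.0921; 1.51% of 1523 windows fell, and 53.8% of the 13 within 500 kb). It passed when scaled to chromosome 11 pairs, at -0.49 (edgeR adjusted p = 0.0171), and with DESeq2, at -0.92 (adjusted p = 0.00609).

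**Figure D1:**
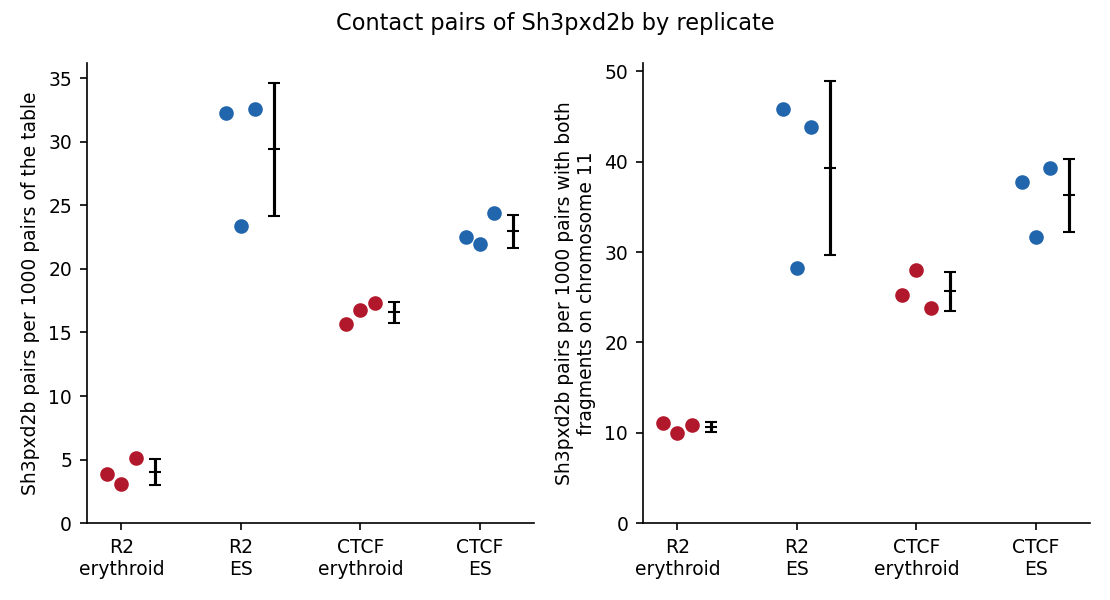
Fragment pairs with Sh3pxd2b per 1000 pairs of the table (left axis) and, among pairs with both fragments on chromosome 11, per 1000 of those (right axis), for each viewpoint and cell type. Points are biological replicates, bars the mean ± SD (n = 3). From R2 the erythroid replicates lie between 3.10 and 5.14 on the left and the ES replicates between 23.4 and 32.6.

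The change at Sh3pxd2b differed between the viewpoints. In erythroid cells R2 contacted the gene less than the CTCF site did, by -2.07 ± 0.34 on the log2 scale of pairs per 1000. In ES cells R2 contacted it slightly more, by 0.34 ± 0.22 (SD, n = 3). Per chromosome 11 pair these log2 values were -1.27 ± 0.19 in erythroid and 0.09 ± 0.23 in ES cells (SD, n = 3). Fitted together in edgeR with each sample's own level as a term, the log2 change from R2 minus that from CTCF was -2.40 (SE 0.21, adjusted p = 2.19e-09). The same call was made in 1.51% of 1524 windows, but in 92.3% of the 13 within 500 kb of R2. Within 500 kb only 1 of 13 windows had a lower difference than Sh3pxd2b, namely the upstream window that starts 312 kb before it, and the median was -1.78. Scaled to chromosome 11 pairs, the difference was -1.34 (edgeR adjusted p = 0.00023).

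The contact level fell along the gene with distance from the domain, and from R2 the ES level exceeded the erythroid level in every bin. In 4 kb bins, as contacts per 1000000 pairs of the table, the R2 level ranged from 52.6 to 484 in erythroid cells and from 813 to 3489 in ES cells. The first bin, nearest the globin genes, had 467, 424 and 562 contacts per 1000000 pairs in the erythroid replicates against 2809, 2261 and 2433 in ES. The last bin, which reaches 2 kb past the range, had 18.8, 72.9 and 66.03 against 892, 660.3 and 886. Groups did not overlap at either end of the gene.

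All 20 bins passed the test as lower in erythroid cells from R2 (edgeR adjusted p between 5.53e-06 and 0.0274), and in all 20 every erythroid replicate lay below every ES replicate, as in 11.1% of bins over chromosome 11 and 82.4% within 500 kb. Over chromosome 11, 2.89% of 7436 bins fell, and within 500 kb of R2 66% of 250 did. The median log2 change was -3.02 over the bins of Sh3pxd2b and -2.69 over the 250. Scaled to chromosome 11 pairs, 14 of the 20 bins passed, against 1.14% over the chromosome and 32.4% within 500 kb, and all 20 remained below 0 (from -3.01 to -1.29). DESeq2 with its own size factors called 2 of the 20, against 0.417% over the chromosome.

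The bins with the highest R2 level in erythroid cells were the first, the one at chr11:32259001-32263000 and the sixth. The sixth bin, at chr11:32267001-32271000, was the highest in ES cells, with 3489 ± 934 contacts per 1000000 pairs against 437 ± 341 in erythroid cells (SD, n = 3). Its erythroid replicates were far apart, at 132, 375 and 805, but all lay below the lowest ES replicate of 2719. The largest changes were at the last bin, with a log2 change of -3.93 (SE 0.93, edgeR adjusted p = 0.00186), and at chr11:32299001-32303000, also -3.93 (SE 0.79, edgeR adjusted p = 8.95e-05). There the erythroid replicates had 67.8, 31.3 and 149 contacts per 1000000 pairs and the ES replicates 1623, 839.7 and 1369. The next in size was chr11:32311001-32315000, at -3.76 (SE 0.73), where erythroid values of 136, 76.4 and 128 stood against ES values of 1129, 1521 and 1969.

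From the CTCF site the 2 profiles began together and parted along the gene. In the first bin the erythroid replicates had 1828, 2109 and 2075 contacts per 1000000 pairs and the ES replicates 1828, 2580 and 1669, with full overlap (log2 change -0.01, SE 0.33). In the second bin, which was the highest in erythroid cells, the level was 2274 ± 145 against 2077 ± 162 in ES cells (SD, n = 3). In the last bin it was 216, 221 and 228 against 564, 893 and 630.2, with no overlap (log2 change -1.65, SE 0.66). Of the 20 bins, 18 had a log2 change below 0 and in 10 every erythroid replicate lay below every ES replicate, as in 4.57% of bins over the chromosome and 44.4% within 500 kb. EdgeR called 0 (lowest adjusted p 0.203; 0.904% of 7742 bins over the chromosome were called in either direction, and 8% of 250 fell within 500 kb). At an unadjusted p under 0.05 there were 9, all lower in erythroid cells, against 4.97% of bins over the chromosome and 41.2% within 500 kb. DESeq2 called 0 of the 20, and 0.659% of bins over the chromosome fell by it.

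The bin at chr11:32259001-32263000 was the highest from the CTCF site in ES cells, at 3047 ± 759 contacts per 1000000 pairs, and had 1969 ± 290 in erythroid cells (SD, n = 3). Its lowest ES replicate lay just below its highest erythroid replicate. The bin at chr11:32315001-32319000, near the far end, did not share the decline of its neighbours. It had 785, 921 and 853 contacts per 1000000 pairs in erythroid cells and 810, 1016 and 562 in ES cells, and was singled out after its values were seen. In the joint fit of both viewpoints, the log2 change, erythroid minus ES, was called lower from R2 than from CTCF in 12 of the 20 bins. The same call was made in 0.493% of 13390 bins over the chromosome and 24.8% of 250 within 500 kb of R2. The differences between the changes ran from -3.30 to -1.92 over the 20.

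**Figure D2:**
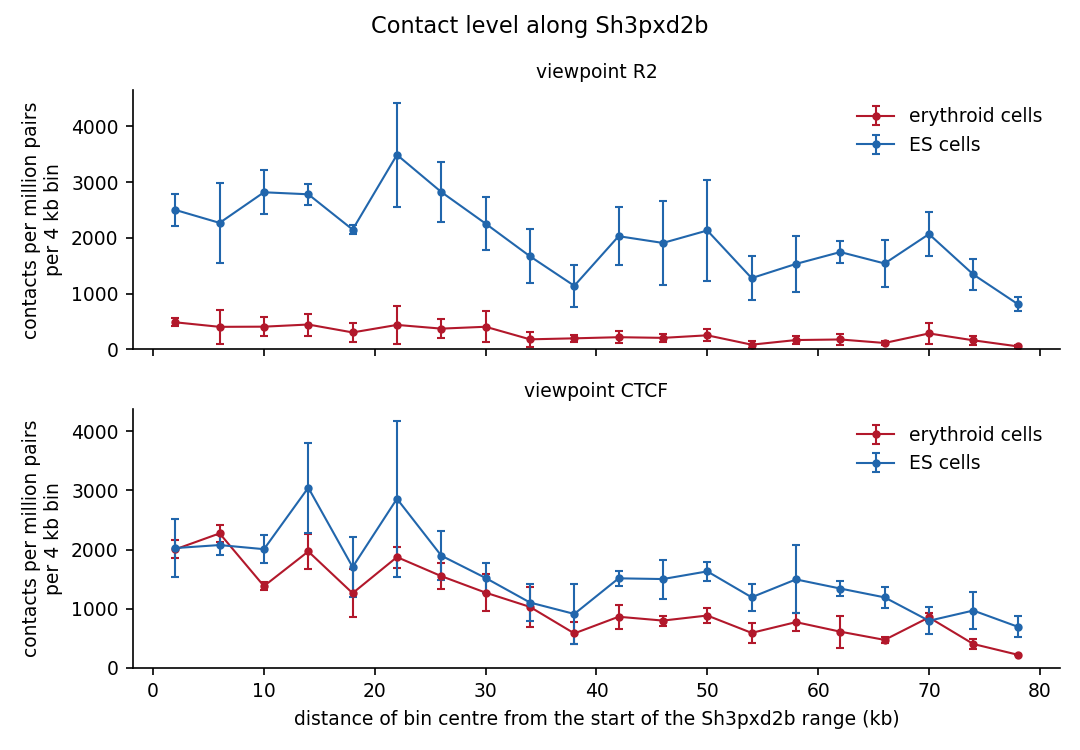
Contacts per 1000000 pairs in 4 kb bins along Sh3pxd2b, by distance of the bin centre from the start of the range in kb; points are means of 3 replicates and bars the SD. From R2 the ES level exceeds the erythroid level in all 20 bins, while from CTCF the first bins coincide and the later ones mostly part.

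Bins also differ in how many NlaIII fragments they hold, for example 17 in the first and 29 in the sixth. In the last bin 6 were counted, but only in its part inside the range. Over the first 19 bins the level correlated with the number of fragments, with Pearson r of 0.52 in erythroid and 0.77 in ES cells from R2, and 0.54 and 0.66 from CTCF. The bins share libraries and neighbouring fragments, so these values are descriptions. Peaks such as the sixth bin were therefore seen where fragments are dense, and the part of fragment density in them was not tested.

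Coverage of single fragments was sparse in erythroid cells from R2. There 346 of the 379 fragments were seen, 102 of them in all 3 replicates, against 379 and 334 in ES cells. From the CTCF site 377 were seen in each cell type, 310 of them in all erythroid and 286 in all ES replicates. The most counted Sh3pxd2b fragment from R2 in erythroid cells, chr11:32255111-32255216, had 72 counts from 22 distinct pairs, and 225 from 53 in ES cells. The most counted from CTCF in erythroid cells, chr11:32254659-32254732, had 209 counts from 42 distinct pairs, and 56 from 18 in ES cells. Both lie in the first 9 kb of the range, but with so few distinct pairs a single fragment's order is not firm.

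The decline from the globin genes to Sh3pxd2b was steeper in erythroid cells from both viewpoints. Contacts per kb between Hba-x and CTCF +44 exceeded those at Sh3pxd2b 51.3-fold from R2 in erythroid cells and 6.18-fold in ES cells, as ratios of geometric means. The log2 ratios of Sh3pxd2b to that stretch were -5.61, -5.83 and -5.61 in the erythroid replicates and -2.41, -3.13 and -2.34 in ES. From CTCF they were -3.80, -3.42 and -4.14 against -2.47, -2.67 and -2.31. Neither pair of groups overlapped, and each difference, -3.05 and -1.31, had an exact two-sided permutation p = 0.1 (n = 3), the smallest possible. Because both densities come from the same library, these ratios do not change with the scaling.

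Taken step by step, the steps at the boundary itself were the ones that differed most from R2. From the globin stretch to the CTCF sites +44 and +48, the R2 density fell 4.29-fold in erythroid cells and 1.64-fold in ES cells. From those sites to the 20.5 kb between them and Sh3pxd2b, it fell 3.79-fold against 1.59-fold. From there into Sh3pxd2b it fell 3.16-fold against 2.37-fold, and from the gene to the next 78 kb 2.08-fold against 1.68-fold. The replicates of the cell types did not overlap at the first 3 steps and overlapped at the last (exact permutation p = 0.1 for each of these 3 and 0.3 for the last, n = 3, adjusted 0.123 and 0.343 over 16 ratios). As contacts per kb per 1000000 chromosome 11 pairs, the globin stretch had 10695 ± 605 in erythroid and 4607 ± 565 in ES cells, and Sh3pxd2b 208 ± 6.75 and 751 ± 139 (SD, n = 3), so the order of the cell types turned between them.

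From the CTCF viewpoint the drop lay further out. The density changed little between the globin stretch and the sites +44 and +48, 1.14-fold in erythroid and 1.34-fold in ES cells, and those groups overlapped (exact permutation p = 0.4, n = 3, adjusted 0.427). It then fell 2.97-fold against 1.68-fold to the stretch before Sh3pxd2b, and 4.09-fold against 2.48-fold into the gene. At both of these steps the groups did not overlap (exact permutation p = 0.1, n = 3, adjusted 0.123). Within Sh3pxd2b the 39 kb nearest the domain had more contacts than the 39 kb beyond, by 2.26-fold in erythroid cells, with log2 ratios in erythroid and ES cells of 1.17 ± 0.04 and 0.59 ± 0.14 (SD, n = 3, exact permutation p = 0.1, adjusted 0.123). From R2 the same log2 ratios were 1.06 ± 0.39 and 0.52 ± 0.12 (SD, n = 3, exact permutation p = 0.1, adjusted 0.123).

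**Figure D3:**
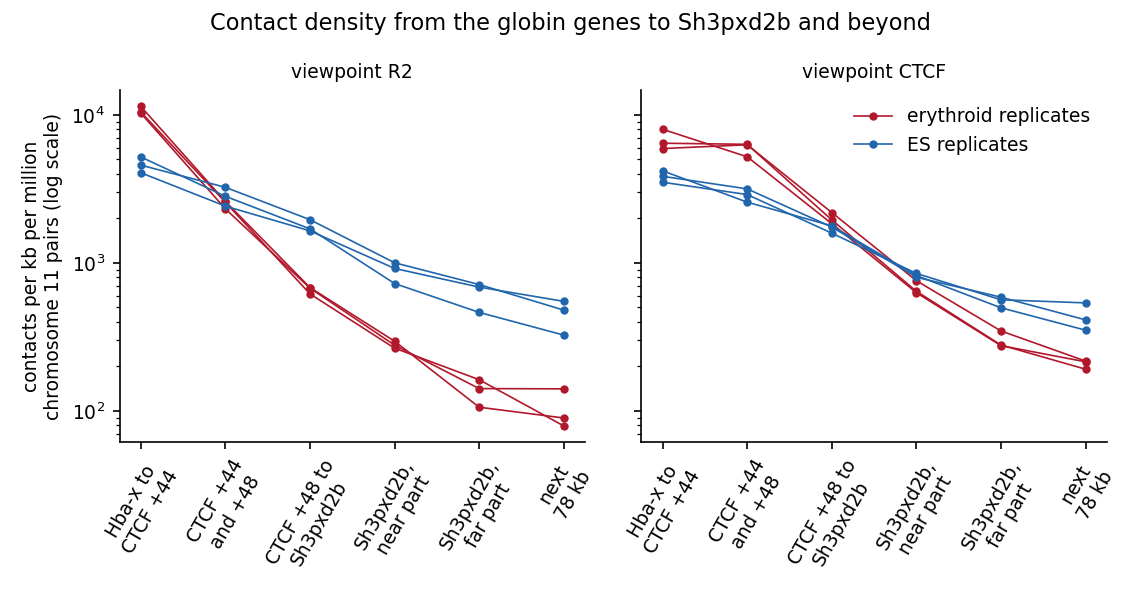
Contacts per kb per 1000000 chromosome 11 pairs (log axis) in consecutive stretches from Hba-x past the CTCF sites +44 and +48 and along Sh3pxd2b to the next 78 kb; each line is a biological replicate. From R2 the erythroid lines start above the ES lines and end below them, with the globin stretch 51.3-fold above Sh3pxd2b in erythroid cells and 6.18-fold in ES cells.

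Sh3pxd2b was compared with the 78 kb at the same distance on the other side of each viewpoint. From R2 the gene's density was 1.33 times that of the upstream range in erythroid and 1.20 times that in ES cells. The log2 ratios were 0.51, 0.55 and 0.18 against 0.47, 0.05 and 0.29, and overlapped (exact permutation p = 0.5, n = 3). From the CTCF site the ratio was 1.95 in erythroid cells and 1.28 in ES cells. There the log2 ratios of 0.96, 1.05 and 0.88 all lay above 0.44, 0.34 and 0.28 (exact permutation p = 0.1, n = 3). With the first technical replicates only, the R2 ratios of the erythroid replicates were 0.40, -0.12 and 0.03, so that 1 lay below the upstream side.

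The third fragment of each read shows what else lay with the viewpoint and Sh3pxd2b. Over all pairs the most frequent partner was Sh3pxd2b itself, in 31.4% ± 0.870 of erythroid and 37.3% ± 13.3 of ES pairs from R2, and in 30.04% ± 4.26 and 36.5% ± 15.6 from CTCF (SD, n = 3, exact permutation p = 0.8 for each). The ES spread came from replicate 2, with 52.5% and 54.5%, whereas the other ES replicates had 31.2% and 28.2% from R2 and 27.3% and 27.7% from CTCF. Most of these pairs joined adjacent fragments. In erythroid cells 61.8% and in ES cells 61.7% of the pairs within the gene from R2 were of this kind, and 63.1% and 56.1% from CTCF. Only 1.10% and 5.32% from R2, and 3.78% and 6.02% from CTCF, joined fragments over 20 kb apart.

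Without pairs of fragments under 1 kb apart, an alternative added after seeing the data, the order of the partners turned. Sh3pxd2b itself then took 6.50% ± 6.41 of erythroid and 11.3% ± 2.25 of ES pairs from R2, with overlap (SD, n = 3, exact permutation p = 0.3). Partners inside the alpha-globin domain took 29.2% ± 1.47 and 32.2% ± 2.61 (SD, n = 3, exact permutation p = 0.2). From CTCF the shares were 7.24% ± 1.31 and 11.01% ± 1.27 within Sh3pxd2b, and 16.2% ± 1.66 and 20.2% ± 2.04 inside the domain, and neither pair of groups overlapped (SD, n = 3, exact permutation p = 0.1 each). Inside the domain they were apart only by the gap between 18.06% and 18.12%.

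Partners inside the alpha-globin domain made up 24.7%, 20.4% and 19.5% of the Sh3pxd2b pairs from R2 in the erythroid replicates and 24.4%, 19.2% and 23.7% in ES, which overlapped (exact permutation p = 1, n = 3). Within the domain the balance differed. The stretch from Hba-x to CTCF +44, which holds the globin genes, took 10.3%, 9.41% and 6.54% in erythroid and 5.51%, 3.90% and 5.92% in ES cells. The enhancer cluster, which includes the fragments flanking the R2 viewpoint, took 12.4%, 9.97% and 11.5% against 14.6%, 12.8% and 14.9%. In neither did the groups overlap (exact permutation p = 0.1, n = 3, adjusted 0.222 over 20 shares). Much of the cluster's share lay beside the viewpoint. The flanking bin chr11:32147001-32151000 had 30.5 per 1000 Sh3pxd2b pairs in erythroid and 29.6 in ES cells. The flanking bin chr11:32151001-32155000 had 28.6 and 38.2. The cluster's share from R2 is therefore not a measure of contact with the other enhancers. The upstream range at the same distance showed both differences as well, with 8.60% ± 2.10 against 4.32% ± 1.03 for the globin stretch and 10.6% ± 0.611 against 14.1% ± 1.99 for the enhancer cluster (SD, n = 3), so from R2 they were not particular to Sh3pxd2b. In the next 78 kb beyond the gene the groups overlapped for the globin stretch, at 7.96% ± 2.68 against 5.95% ± 0.815. They did not for the enhancer cluster, at 10.4% ± 1.04 against 15.1% ± 0.753 (SD, n = 3).

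The same order was seen from the CTCF site. The globin stretch took 8.44%, 5.54% and 6.96% of the Sh3pxd2b pairs in erythroid and 5.46%, 3.16% and 3.88% in ES cells, and the enhancer cluster 1.04%, 1.75% and 2.66% against 5.15%, 3.69% and 6.21%. The groups were apart in both, for the globin stretch by the small gap between 5.46% and 5.54% (exact permutation p = 0.1, n = 3, adjusted 0.222). From CTCF the upstream range showed the enhancer difference, 0.939% ± 0.571 against 4.08% ± 0.963 (SD, n = 3). For the globin stretch its groups overlapped, at 4.27% ± 2.31 against 3.86% ± 1.41. Those of the next 78 kb overlapped too, at 5.38% ± 0.818 against 4.39% ± 1.34 (SD, n = 3). These classes also differ in the viewpoint's own contacts, so a share does not measure preference. Relative to the product of both regions' own contact frequencies, the log2 value of Sh3pxd2b with the globin stretch from R2 was -1.49 ± 0.37 in erythroid and -1.27 ± 0.68 in ES cells, and with the enhancer cluster -1.40 ± 0.11 and -1.12 ± 0.47 (SD, n = 3, exact permutation p = 0.6 and 0.4). The upstream range at the same distance gave -1.38 ± 0.43 and -1.49 ± 0.64 with the globin stretch and -1.35 ± 0.13 and -1.10 ± 0.58 with the enhancer cluster (SD, n = 3). The expected values rest on frequencies that include the pairs within each range, whose own log2 value at Sh3pxd2b was 6.20 and 4.38, so values below 0 elsewhere carry no reading of avoidance.

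Beyond the domain, shares of distant partners were higher in erythroid cells. Chromosome 11 fragments over 500 kb from the viewpoint took 18.2%, 18.4% and 21.4% of Sh3pxd2b pairs from R2 in erythroid cells and 13.6%, 8.29% and 15.4% in ES cells. Fragments past Sh3pxd2b, up to 500 kb, took 2.71%, 2.80% and 2.57% against 6.86%, 4.94% and 8.67%. From CTCF the mean shares were 18.01% ± 1.61 and 11.1% ± 2.52 for the distant fragments and 3.28% ± 0.279 and 7.69% ± 3.57 for those just past the gene (SD, n = 3). The higher share of distant fragments was also seen from R2 for the upstream range, 24.1% ± 3.97 against 12.99% ± 2.80, and for the next 78 kb beyond the gene, 23.1% ± 7.43 against 11.6% ± 3.92 (SD, n = 3). From CTCF it was seen there too, at 21.0% ± 3.49 against 12.7% ± 1.07 upstream and 21.6% ± 3.25 against 12.5% ± 1.10 in the next 78 kb (SD, n = 3). It was thus not particular to Sh3pxd2b. Partners past the gene, up to 500 kb, also took a lower erythroid share in that next 78 kb. There they took 2.90% ± 1.23 against 7.04% ± 1.18 from R2 and 3.78% ± 0.330 against 6.61% ± 0.408 from CTCF (SD, n = 3). In the 4 comparisons of Sh3pxd2b the groups did not overlap (exact permutation p = 0.1, n = 3, adjusted 0.222). Just past the gene from CTCF they were apart only by the gap between 3.56% and 3.62%. The CTCF sites +44 and +48 took 1.10% ± 0.819 and 0.952% ± 0.508 from R2 (SD, n = 3), which overlapped.

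**Figure D4:**
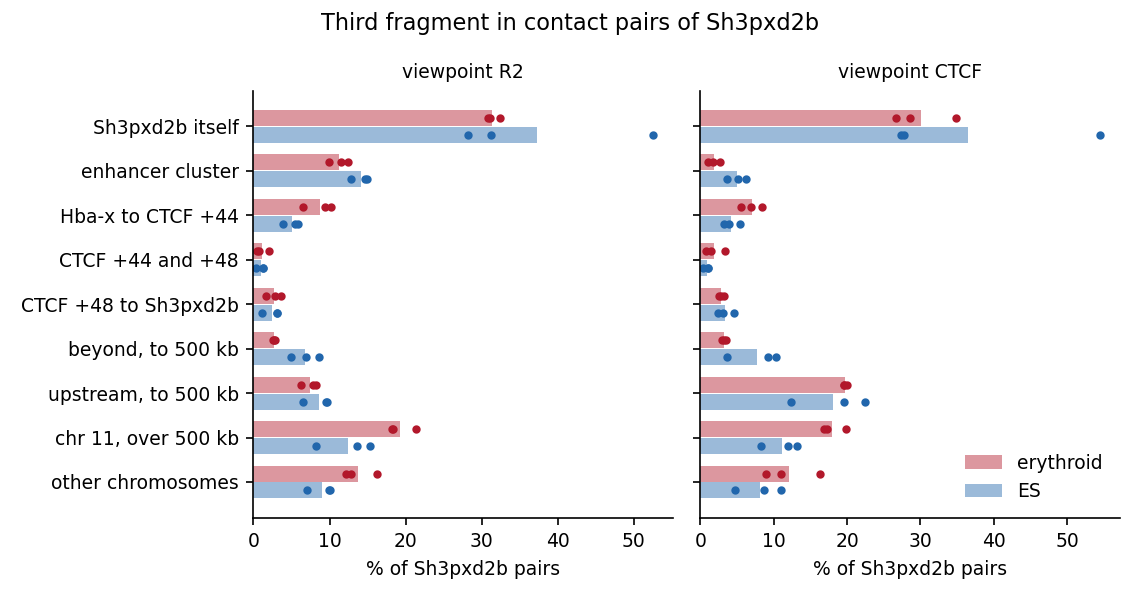
Share of Sh3pxd2b pairs, in %, by the place of the partner fragment, for each viewpoint; bars are means and points the 3 replicates. Sh3pxd2b itself is the largest class, ES replicate 2 stands apart in it at 52.5% (R2) and 54.5% (CTCF), and the globin stretch has the higher share in erythroid cells from both viewpoints.

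By element, the partner counts were low. In 3 kb windows from R2, Hba-a2, an adult alpha-globin gene, was the partner in 10.6, 12.3 and 13.7 of 1000 Sh3pxd2b pairs in erythroid cells. In ES cells it was the partner in 3.02, 8.29 and 2.45. These rested on 19 and 29 pairs counted once per library. Hba-a1, the other adult gene, had 19.4, 13.4 and 0.414 against 3.38, 2.15 and 2.59, so that 1 erythroid replicate lay below ES. The enhancer R3 had 13.7 ± 2.25 against 22.6 ± 6.16, R1 17.9 ± 13.7 against 18.4 ± 7.63, and the embryonic gene Hba-x 7.48 ± 4.44 against 4.30 ± 1.59 (SD, n = 3). Rm had 4.65 ± 4.10 against 7.71 ± 1.91 and R4 2.21 ± 1.96 against 2.75 ± 1.44 (SD, n = 3). These elements rested on 7 to 163 pairs per cell type, counted once per library. Over all pairs, the R2 level per 1000 was 23.9 against 14.9 at Hba-a2, 25.1 against 13.6 at Hba-a1 and 27.6 against 57.6 at R3. It thus differed in the same direction as the partner level there, as at R1 and Rm. At Hba-x (12.6 against 13.3) and R4 (5.24 against 3.40) the directions were opposite. Partner levels therefore do not measure preference.

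From the CTCF site, the elements of highest mean partner level in erythroid cells were the downstream CTCF sites. CTCF +44 had 12.1, 1.36 and 10.7 per 1000 pairs and CTCF +48 20.9, 3.86 and 3.64 in the erythroid replicates, with ES means of 4.34 ± 4.30 and 3.45 ± 3.67 (SD, n = 3). The replicates overlapped with those of ES cells at both. The order rested on erythroid replicate 1: without it the mean was 6.02 for CTCF +44 and 3.75 for CTCF +48, against 5.69 for R2. R2 itself was the partner in 3.79 ± 3.32 of 1000 erythroid and 8.15 ± 3.92 ES pairs, and R3 in 2.33 ± 0.342 and 8.15 ± 3.74 (SD, n = 3). The CTCF viewpoint's level over all pairs, per 1000, differed in the same direction at these 4 elements. It was 13.5 against 5.40 at CTCF +44, 7.65 against 4.94 at CTCF +48, 9.25 against 20.6 at R2 and 5.72 against 11.7 at R3.

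In 4 kb bins, the partners most counted from R2 were those flanking the viewpoint in both cell types. The bin at chr11:32151001-32155000 had 28.6 ± 13.3 per 1000 Sh3pxd2b pairs in erythroid and 38.2 ± 5.35 in ES cells. The most counted bin away from the viewpoint in erythroid cells, at chr11:32195001-32199000 around Hba-a2, had 14.7 ± 4.20 against 5.13 ± 3.59 (log2 change 1.54, edgeR adjusted p = 0.553). From CTCF the most counted erythroid bin inside the domain apart from that flanking the viewpoint, chr11:32199001-32203000, had 15.5 ± 5.85 against 5.04 ± 4.30 (SD, n = 3; log2 change 1.56, edgeR adjusted p = 0.147). Over partner bins edgeR called 0 of 91 from R2 (0%) and 0 of 103 from CTCF (0%). At an unadjusted p under 0.05 there were 6 and 14, and DESeq2 called 0 in each, with 8 and 11 at an unadjusted p under 0.05.

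Over the 12 combinations of sample and viewpoint, the 78 kb windows whose level was most like that of Sh3pxd2b were its flank at chr11:32325001-32403000 (Pearson r 0.976) and the upstream windows at chr11:31935001-32013000 (0.981) and chr11:32013001-32091000 (0.973), among 50 windows within 2 Mb. The points share libraries and viewpoints, so the values are descriptions.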

How the data were processed

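Tri-C of 17 libraries was analysed for 2 viewpoints of the alpha-globin locus. The deposited values are whole-number counts, 1 row per pair of fragments and 1 column per library, as the authors' tables show. Trim Galore, Bowtie and the build mm9 are named per the submitters' processing notes; versions, duplicate removal and fragment calling are not given in the sources used here. Technical replicates were summed. Table totals per replicate were 139337 to 469501 (R2) and 129858 to 459669 (CTCF). The reads carry no molecular identifiers that the sources used here name, and repeated counts of a pair may be copies of 1 molecule.

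Fragments were placed by midpoint, leaving out a margin of 1 kb around each viewpoint. Positions off chromosome 11 were not used. Contacts in 4 kb bins and 78 kb windows with at least 30 counts were tested with edgeR 4.0.16 (quasi-likelihood, R 4.3.3), with the table total as library size, and Benjamini-Hochberg adjusted p under 0.05; the SE is the log2 change over the root of F. DESeq2 1.42.0 was the alternative tool. The fits were tested on simulated data: fitted changes lay near the simulated ones, most changed windows were called, but few changed bins were, so a missing call of a 4 kb bin says little. Ratios and shares used exact two-sided permutation tests over replicates in Python 3.11.15 (numpy 2.4.6, pandas 2.3.3, scipy 1.17.1, matplotlib 3.10.9). Elements are 3 kb windows placed by their names, in kb from Hba-x. Bins named are, per viewpoint, up to 3 of highest level per cell type, up to 3 called ones of largest change without overlap of groups, and the first and last; partner bins and fragments are up to 5 with most counts. The members and lists were chosen with earlier results of these data known. Alternatives were other scalings, tools, duplicate handling, technical replicates, filters, ranges and bin sizes, and leaving out each replicate.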

Additional observations from a re-analysis of the deposited data

Results flagged for a closer look

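The log2 change at Sh3pxd2b differed between viewpoints by a direct test: R2 minus CTCF was -2.40 in the joint edgeR fit (SE 0.21, adjusted p = 2.19e-09), and in all 3 erythroid replicates R2 contacted the gene less than CTCF did. In all 3 ES replicates it contacted the gene more on the scale of all pairs; per chromosome 11 pair the ES log2 values of R2 over CTCF ran from -0.17 to 0.28, so that 1 replicate turned.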

How the results depend on the processing

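The fall from R2 kept its direction and its call in 19 of 19 alternatives (log2 -3.19 to -1.85), as did the difference between viewpoints in 17 of 17 (-2.79 to -1.34). Leaving out each replicate gave -3.12 to -2.74 and -2.54 to -2.22. From CTCF the change was past the threshold at -0.49 with chromosome 11 scaling, -0.89 with TMM factors, -0.92 with DESeq2, -0.51 with each fragment pair counted once per biological replicate (chosen after seeing the data), -0.68 without the nearest 20 kb and -0.53 with only features within 500 kb tested. It was -0.26 with the first technical replicate only (edgeR adjusted p = 0.683). DESeq2 gave no adjusted p for 709 of those windows. Called bins from R2 numbered 10 with TMM factors (0.753% of bins over the chromosome fell), 2 with DESeq2 (0.417%), 36 of 39 in 2 kb bins (4.60%) and 10 of 10 in 8 kb bins (2.08%). Without a replicate they numbered 15 to 20 (1.84% to 4.72% of bins over the chromosome fell). From CTCF they numbered 6 with pairs counted once per library (5.74%), 7 once per biological replicate (6.70%) and 9 within 500 kb (37.6% of the bins there). Called partner bins numbered 1 of 91 from R2 and 1 of 103 from CTCF without pairs of fragments under 1 kb apart (added after seeing the data). They numbered 1 of 58 from CTCF with the first technical replicate only. From R2 they numbered 2 of 89 without erythroid replicate 3 and 0 without any other replicate.

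The difference of the R2 log2 ratio of Sh3pxd2b to the upstream range, 0.15, turned to -0.060 once per library, -0.059 once per biological replicate and -0.24 with the first technical replicate only. The share of partners in the domain from R2 turned from -0.91 to 0.26 percentage points once per library and 5.01 with the first technical replicate only, and ran from -2.53 to 0.11 without a replicate. The share within Sh3pxd2b ran from -10.4 to 1.74 (R2) and -11.1 to 2.53 (CTCF) without a replicate; the upper values are those without ES replicate 2. The causes were not tested. The first technical replicates of the erythroid cells had 1.33 to 1.58 counts per distinct Sh3pxd2b pair against 3.16 to 4.91 in the others. Without them, added after seeing the data, the R2 change was -2.89 and 19 bins were called (2.34% of bins over the chromosome fell).

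With the replicate block the R2 change was -2.93 and the CTCF change -0.53 (edgeR adjusted p = 0.0632). It called 19 bins from R2 and 0 from CTCF (2.15% and 0.168% of bins over the chromosome fell). Same-numbered samples did not deviate together (r -0.10 to 0.02), which cannot show whether they were prepared together. The erythroid R2 level at Sh3pxd2b rests on 1386 distinct pairs and the ES level on 5886, although the erythroid R2 tables hold more counts in all.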
